A study of Mus musculus with 10 samples.

Results

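The BCL2 family decides whether a cell opens its outer mitochondrial membrane and dies. Its transcripts were followed here in 10 genes: the anti-apoptotic members Bcl2, Bcl2l1 and Mcl1, the effectors Bax and Bak1, and the BH3-only members Bid, Bcl2l11, Bbc3, Pmaip1 and Bmf. They were taken by symbol from a table of 55359 genes, of which 28093 were above 0 in some library, and all 10 were found and passed the filter on low values. In libraries labelled as Dhx9 knockout (cKO) against wild type (WT), 2 BH3-only transcripts, Pmaip1 and Bbc3, rose 3.89-fold and 2.73-fold, while Bcl2, Bcl2l11 and Bmf fell by 1.06, 1.05 and 1.36 on the log2 scale. Bax rose 1.76-fold and Mcl1 fell by 0.29 on the log2 scale, whereas the tests of Bcl2l1, Bak1 and Bid did not pass.

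RNA-seq was run on lineage-negative (Lin-) cells, which are marrow cells left after those carrying markers of mature blood lineages are depleted. Both groups had the floxed Dhx9 allele: Dhx9f/f mice (WT, 5 libraries) are labelled without Cre, and Dhx9f/f;MX1 mice (cKO, 5 libraries) also had Cre under the Mx1 promoter, which interferon switches on and which is not limited to blood cells. The Cre was induced by injecting poly(I:C), a synthetic double-stranded RNA that itself raises interferon, and mice were in general examined about a week after the first injection. Whether the WT mice of this experiment received poly(I:C), and the age of the mice, are not given in the sources used here, so an effect of the injection and one of the deletion cannot be told apart. The samples carry the genotype labels WT and Dhx9 knock down. Nothing in the labels says that each library came from a separate mouse, so p-values measure the spread between these libraries.

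The targeted gene went against its label. Dhx9, the RNA helicase that should be deleted, was at 65.43 to 72.42 FPKM (fragments per kilobase of transcript, scaled to the depth of the library) in the WT libraries and at 130.82 to 156.49 FPKM in the libraries labelled cKO. The direction of every result therefore rests on the labels. Xist, the RNA of the inactive X chromosome of female cells, was at 99.19 to 127.76 FPKM in WT 3, 4 and 5. It was under 1 FPKM, at 0.03 to 0.09 FPKM, in WT 1 and 2 and in all cKO libraries. By this marker, female cells were found in WT libraries only, so sex was not balanced between the groups. Depth was 13794355 to 18723126 fragments per library. Markers of the Lin- population moved as well: 7 of 10 erythroid markers were called higher, among them Hbb-bs, and their summed level was 467 to 1470 FPKM in WT and 2080 to 3270 FPKM in cKO. All 8 monocyte and dendritic cell markers, led by Lyz2, were called lower, with sums of 666 to 1200 against 3.16 to 173 FPKM. The neutrophil list was mixed: 4 of 8 markers, led by Mpo, were called lower, while Camp (log2 fold change 0.98), Ltf (1.39), S100a8 (-1.24) and S100a9 (-0.20) did not pass, S100a9 reaching 894.75 FPKM in cKO 1. Its sum was 2210 to 3020 FPKM in WT and 105 to 2000 FPKM in cKO. Called lower were all 7 megakaryocyte markers, led by Ppbp (281 to 1280 against 85.3 to 186 FPKM). Also called lower were 5 of 6 mast cell and basophil markers, led by Prss34 (682 to 1360 against 88.0 to 583 FPKM), 4 of 7 T and NK cell markers, led by Nkg7 (76.7 to 100 against 6.47 to 26.9 FPKM), and all 7 stem cell markers, led by Esam (10.5 to 19.7 against 1.5 to 4.87 FPKM). The same held for 3 of the 6 B-lymphoid markers tested, led by Dntt (26.6 to 34.5 against 0.87 to 7.94 FPKM). It also held for 4 of 5 endothelial and stromal markers, led by Pecam1 (19.2 to 26 against 0.82 to 5.57 FPKM). Most of the endothelial and stromal sum was Pecam1 alone, at 15.99 to 21.44 FPKM in WT and 0.61 to 4.9 FPKM in cKO. In the T and NK cell list Cd3e (log2 fold change 0.53), Cd3g (0.29) and Cd8a (-0.74) did not pass. Most of the sum of that list was Nkg7, at 72.96 to 95.95 FPKM in WT and 6.3 to 24.95 FPKM in cKO. Siglech, Igll1, Dntt, Cd4, Cd8a, Klrb1c, Ncr1, Procr, Fgd5, Cdh5 and Col1a1 were at 0 in some cKO libraries. Beside these counts, 4.60% of all genes tested were called higher and 16.8% lower. The part of these marker shifts in the results on the BCL2 family was not tested. In bulk RNA of a mixed population, fewer cells of a type and less RNA per cell cannot be told apart.

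Proteins of the family meet through a short helix, the BH3 motif. Anti-apoptotic members bind the BH3 helix of the others in a groove on their surface and so hold them inactive. Effectors, once freed or activated, assemble into pores that release cytochrome c. BH3-only members carry the helix as their main shared element and are the sensors of stress, being switched on by transcription or by modification. In blood, Mcl1 is needed by stem cells and granulocytes, Bcl2l1 by maturing red cells, Bcl2 by lymphocytes, and loss of Bcl2l11 or Bbc3 lets blood cells outlive the withdrawal of growth factors.

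The coding bases of the BH3 core are shown because this motif is what the 3 roles share and what defines the BH3-only class. Each run of 33 bases was cut from the reference coding sequence (GRCm39, GENCODE canonical transcript) and reads 5′ to 3′ on the coding strand, with capitals for the codon of the conserved leucine and for the codons of the glycine or alanine and the aspartate that follow. They encode the anti-apoptotic members, the effectors and the BH3-only members in this order:

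Bcl2: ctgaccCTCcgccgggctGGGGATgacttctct

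Bcl2l1: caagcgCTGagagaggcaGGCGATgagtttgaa

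Mcl1: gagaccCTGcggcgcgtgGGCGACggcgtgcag

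Bax: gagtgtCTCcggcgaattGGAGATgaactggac

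Bak1: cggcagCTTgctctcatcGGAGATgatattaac

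Bid: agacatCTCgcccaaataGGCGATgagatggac

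Bcl2l11: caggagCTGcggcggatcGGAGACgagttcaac

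Bbc3: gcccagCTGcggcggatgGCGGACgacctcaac

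Bmf: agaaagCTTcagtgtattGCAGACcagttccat

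In Bbc3 and Bmf an alanine codon (GCG and GCA) stood where the other 7 had a glycine codon, and these are 1 member that rose and 1 that fell. The sequence of Pmaip1 is not shown here. In GRCm39 the cores lay in exon 1 of 2 of Bcl2 (chr1:106640305-106640337, minus strand), exon 2 of 3 of Bcl2l1 (chr2:152671617-152671649, minus) and exon 1 of 3 of Mcl1 (chr3:95566741-95566773, plus). Those of the effectors lay in exon 3 of 6 of Bax (chr7:45115421-45115453, minus) and exon 4 of 6 of Bak1 (chr17:27241505-27241537, minus). Among the BH3-only members the core was in exon 4 of 6 of Bid (chr6:120874250-120874282, minus) and exon 3 of 4 of Bcl2l11 (chr2:127989064-127989096, plus). It was in exon 3 of 4 of Bbc3 (chr7:16047692-16047724, plus) and exon 4 of 5 of Bmf (chr2:118375581-118375613, minus).

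Over all members, 2 were called higher and 3 lower in cKO, a call needing at least a 2-fold change and an adjusted p under 0.05 by limma on log2(FPKM + 0.1) with Benjamini-Hochberg adjustment over all 18742 genes tested. Of all genes tested, 4.60% were called higher and 16.8% lower. The 2 rises were called in each fit. The 3 falls kept their direction but fell short of the fold limit in some: with a pseudocount of 1, Bcl2 was at -0.90, Bcl2l11 at -0.85 and Bmf at -0.66 (adjusted p 0.00638, 0.00247 and 0.00753). With quantile normalization Bcl2 was at -0.81, Bcl2l11 at -0.70 and Bmf at -0.89 (0.0279, 0.0119 and 0.0440), and with median-ratio scaling Bcl2 was at -0.95 and Bcl2l11 at -0.94 (0.0145 and 0.00432). On adjusted p alone, 3 members were higher and 4 lower, where 16.7% and 28.3% of all genes were. The 5 WT and 5 cKO libraries did not overlap for 3 members that were higher and 3 that were lower, as they did not for 10.6% and 21.6% of all genes. The median log2 fold change of the members was -0.06, beside -0.11 over all genes tested. A fold change on this scale understates the change of genes with low values.

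**Figure D1:**
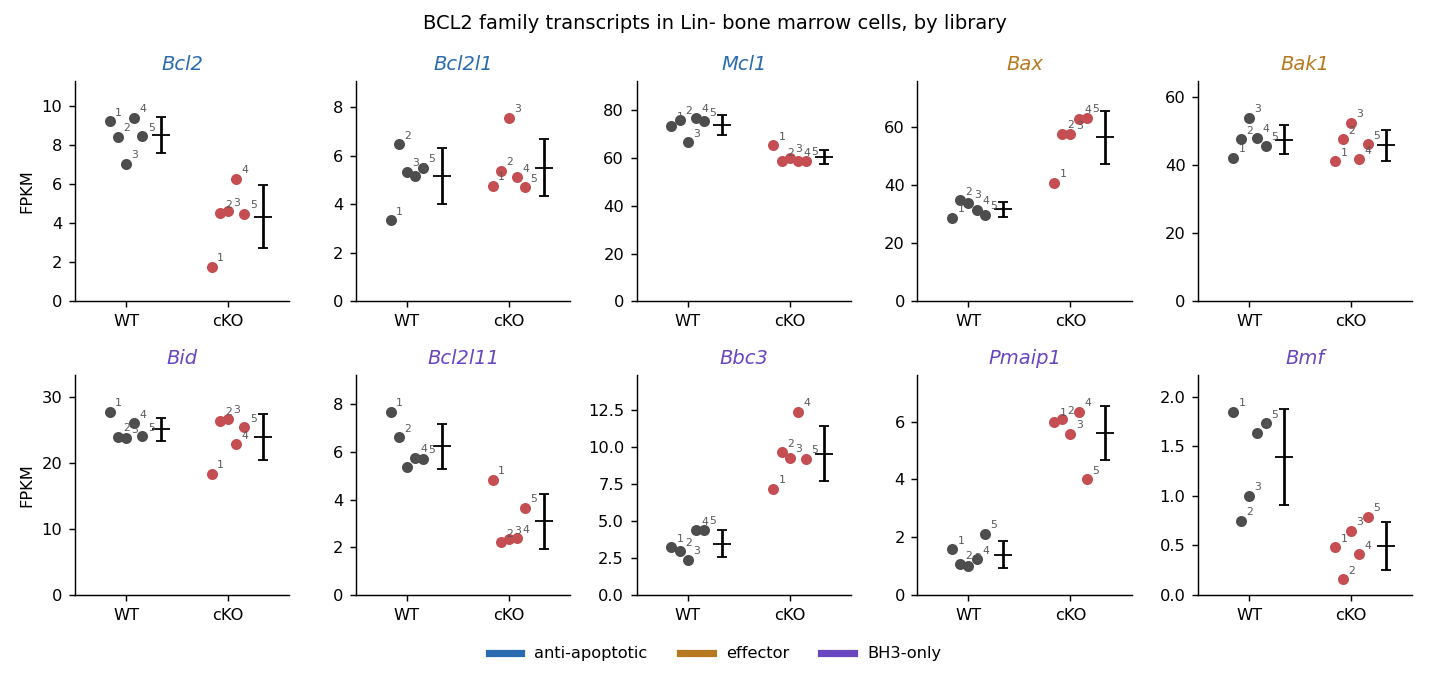
FPKM of each of the 10 members (vertical axes, starting at 0, with a scale of their own) in the 5 WT and 5 cKO libraries; numbers beside the points are replicate numbers, and the bars give the mean and SD of 5 libraries. The groups are apart for Bcl2, Mcl1, Bax, Bcl2l11, Bbc3 and Pmaip1, and library cKO 1 is the lowest of its group for Bcl2 and Bax.

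The anti-apoptotic members were dominated by Mcl1 in both groups. Their summed level was 78.88 to 91.37 FPKM in WT and 68.09 to 72.21 FPKM in cKO, 87.3 ± 5.13 against 70.1 ± 1.87 FPKM (mean ± SD, n = 5 libraries each), and the ranges did not overlap. Of the 3 members, 1 was called lower and none higher (16.8% and 4.60% of all genes tested), and 2 were lower on adjusted p alone (28.3%).

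Bcl2 (ENSMUSG00000057329, chr1:106465908-106642060, minus strand in GRCm39) encodes the founding member, which shields the mitochondria of lymphoid and progenitor cells. Its level in WT 1 to 5 was 9.22, 8.42, 7.05, 9.40 and 8.45 FPKM. In cKO 1 to 5 it was 1.77, 4.52, 4.61, 6.28 and 4.48 FPKM. Every cKO library was below every WT library, and cKO 1 was the lowest by far. Means were 8.51 ± 0.927 and 4.33 ± 1.62 FPKM, a log2 fold change of -1.06 (SE 0.273, 95% interval -1.66 to -0.45, limma adjusted p = 0.00896). Without cKO 1 the log2 fold change was -0.77 (adjusted p = 0.000828), short of the fold limit, and among libraries with Xist under 1 FPKM (WT 1 and 2 against the 5 cKO) it was -1.11 (adjusted p = 0.0932).

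Bcl2l1 (ENSMUSG00000007659, chr2:152622582-152673655, minus strand) encodes BCL-XL, the guardian of late erythroid cells and platelets. It stood at 3.34, 6.48, 5.35, 5.15 and 5.51 FPKM in WT 1 to 5. Values in cKO 1 to 5 were 4.76, 5.39, 7.57, 5.11 and 4.71 FPKM. The groups overlapped, and cKO 3 alone lay above all WT libraries. With means of 5.17 ± 1.14 and 5.51 ± 1.19 FPKM, the log2 fold change of 0.10 (95% interval -0.31 to 0.51) did not pass (limma adjusted p = 0.695), and it turned to -0.05 without WT 1 and to -0.02 without cKO 3. The interval reaches neither limit of a 2-fold change.

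Mcl1 (ENSMUSG00000038612, chr3:95566026-95570487, plus strand) encodes a short-lived protector whose protein level follows its degradation as well as its RNA. WT 1 to 5 held 73.55, 75.95, 66.48, 76.82 and 75.32 FPKM. The cKO libraries 1 to 5 held 65.28, 58.58, 60.03, 58.59 and 58.90 FPKM. The groups were apart by a narrow gap, between WT 3 and cKO 1. The mean went from 73.6 ± 4.17 to 60.3 ± 2.86 FPKM, a log2 fold change of -0.29 (SE 0.0575, 95% interval -0.41 to -0.16, limma adjusted p = 0.00212), a small fall that passed on adjusted p alone. It kept its direction with an adjusted p under 0.05 in all 21 alternative fits, in which it ran from -0.39 to -0.18.

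The effectors split. Of the 2 genes 1, Bax, was higher on adjusted p alone, as were 16.7% of all genes tested, and neither was called. Their summed level was 70.88 to 87.64 FPKM in WT and 81.83 to 109.91 FPKM in cKO, which overlap.

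Bax (ENSMUSG00000003873, chr7:45111015-45116325, minus strand) encodes the pore former that waits in the cytosol, and its gene is a textbook target of p53. Levels in WT 1 to 5 were 28.68, 34.67, 33.65, 31.40 and 29.78 FPKM. They were 40.67, 57.58, 57.44, 62.64 and 63.02 FPKM in cKO 1 to 5. All cKO libraries were above all WT libraries, with cKO 1 well under the other 4. From 31.6 ± 2.52 to 56.3 ± 9.12 FPKM, the log2 fold change was 0.82 (SE 0.117, 95% interval 0.56 to 1.07, limma adjusted p = 0.000329), below the fold limit. All 21 alternative fits gave an adjusted p under 0.05 and 0.74 to 0.93 on the log2 scale.

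Bak1 (ENSMUSG00000057789, chr17:27238784-27247983, minus strand) encodes BAK, the effector that sits in the mitochondrial membrane at rest. WT 1 to 5 were at 42.20, 47.75, 53.99, 48.12 and 45.82 FPKM, and cKO 1 to 5 at 41.16, 47.63, 52.47, 41.88 and 46.22 FPKM. The 2 groups covered nearly the same range. Means of 47.6 ± 4.29 and 45.9 ± 4.61 FPKM gave a log2 fold change of -0.05 (95% interval -0.24 to 0.13, limma adjusted p = 0.638), and its sign was positive in 3 alternative fits.

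**Figure D2:**
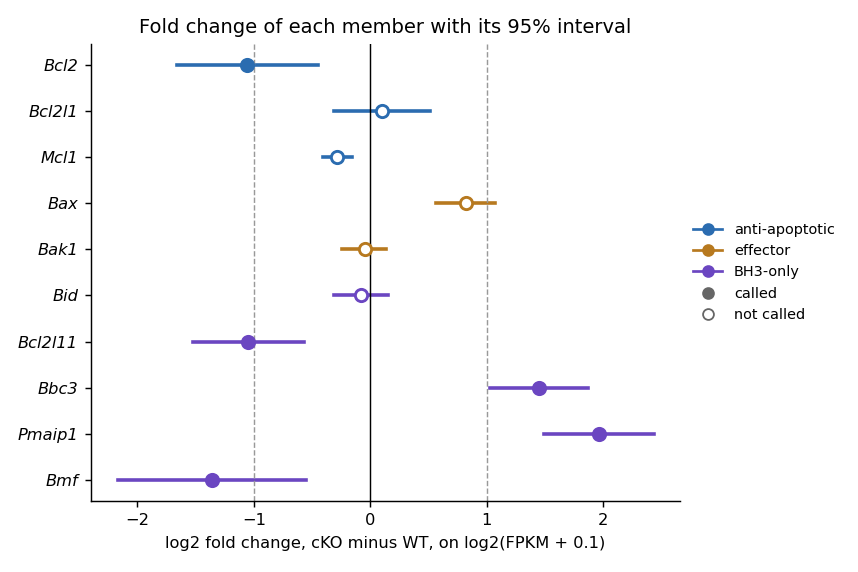
Log2 fold change (cKO minus WT, horizontal axis, on log2(FPKM + 0.1)) of each member with its 95% interval from limma; colours give the role, filled points are called and dashed lines mark a 2-fold change. Pmaip1 and Bbc3 lie to the right, Bmf, Bcl2 and Bcl2l11 to the left, and the intervals of Bcl2l1, Bak1 and Bid span 0.

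The 5 BH3-only members moved in both directions. Of them 2 were called higher and 2 lower, beside 4.60% and 16.8% of all genes tested. Their summed level was 33.48 to 42.16 FPKM in WT and 36.92 to 44.57 FPKM in cKO, and most of it came from Bid, which did not pass.

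Bid (ENSMUSG00000004446, chr6:120862525-120894171, minus strand) encodes the BH3-only protein that caspase 8 cleaves, which links death receptors to mitochondria. Its levels were 27.82, 24.00, 23.76, 26.02 and 24.07 FPKM in WT 1 to 5, and 18.42, 26.45, 26.73, 22.90 and 25.46 FPKM in cKO 1 to 5. The groups overlapped, and cKO 1 was the lowest of all 10 libraries. The means, 25.1 ± 1.75 and 24.0 ± 3.46 FPKM, differed by -0.08 on the log2 scale (95% interval -0.31 to 0.15, limma adjusted p = 0.578), and the sign turned without cKO 1. In the annotation Bid overlaps Bcl2l13 on the other strand, and whether fragments were counted by strand is not given in the sources used here, so fragments from the shared stretch cannot be told apart. Bcl2l13 was higher in cKO (log2 fold change 0.71, limma adjusted p = 9.54e-05), and its part in the values of Bid was not tested.

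Bcl2l11 (ENSMUSG00000027381, chr2:127967958-128004476, plus strand) encodes BIM, a strong binder of all anti-apoptotic members and the main killer after growth factor loss. It was at 7.69, 6.62, 5.35, 5.76 and 5.71 FPKM in WT 1 to 5. The cKO values were 4.84, 2.21, 2.33, 2.38 and 3.67 FPKM. All cKO libraries were under all WT libraries, cKO 1 being the closest. The mean went from 6.23 ± 0.942 to 3.09 ± 1.15 FPKM, a log2 fold change of -1.05 (SE 0.217, 95% interval -1.52 to -0.57, limma adjusted p = 0.00263). This lies next to the fold limit: without WT 1, cKO 2, cKO 3 or cKO 4 the value was -0.97, -0.95, -0.96 or -0.97 and no longer called, although the adjusted p stayed under 0.05 in all 21 alternative fits.

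Bbc3 (ENSMUSG00000002083, chr7:16042318-16052130, plus strand) encodes PUMA, which p53 induces and which binds all anti-apoptotic members. WT 1 to 5 had 3.22, 2.95, 2.38, 4.38 and 4.41 FPKM. The levels in cKO 1 to 5 were 7.18, 9.64, 9.27, 12.39 and 9.20 FPKM. The lowest cKO library was above the highest WT library. From 3.47 ± 0.899 to 9.54 ± 1.86 FPKM, the log2 fold change was 1.45, or 2.73-fold (SE 0.191, 95% interval 1.03 to 1.87, limma adjusted p = 0.000214). It was called in all 21 alternative fits, with 1.24 to 1.74 on the log2 scale.

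Pmaip1 (ENSMUSG00000024521, chr18:66591604-66598636, plus strand) encodes NOXA, a selective partner of MCL1 that both p53 and the ATF4 branch of the stress response can induce. Its WT values were 1.58, 1.06, 0.99, 1.25 and 2.12 FPKM. Its cKO values were 6.0, 6.09, 5.59, 6.35 and 4.0 FPKM. The groups were far apart, WT 5 and cKO 5 being nearest to each other. The mean rose from 1.40 ± 0.463 to 5.61 ± 0.938 FPKM, a log2 fold change of 1.96, or 3.89-fold (SE 0.213, 95% interval 1.49 to 2.43, limma adjusted p = 9.93e-05). This was the largest change among the members, and it was called in all 21 alternative fits, with 1.47 to 2.34 on the log2 scale.

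Bmf (ENSMUSG00000040093, chr2:118359238-118380177, minus strand) encodes a BH3-only protein tied to the cytoskeleton and to loss of attachment. WT 1 to 5 stood at 1.85, 0.75, 1.0, 1.63 and 1.73 FPKM. In cKO 1 to 5, Bmf was at 0.48, 0.16, 0.65, 0.41 and 0.79 FPKM. Bmf had the lowest mean of the members in both groups, although in WT its libraries overlapped those of Pmaip1. Its WT and cKO libraries overlapped, WT 2 lying below cKO 5. The mean fell from 1.39 ± 0.486 to 0.498 ± 0.240 FPKM, a log2 fold change of -1.36 (SE 0.367, 95% interval -2.17 to -0.55, limma adjusted p = 0.011). Its lowest library rests on about 14 fragments, and with Xist as a covariate or among libraries with Xist under 1 FPKM the log2 fold change was -1.22 in both, with an adjusted p of 0.0927 and 0.15.

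The order of the levels, which FPKM gives per length, differed between the groups. In WT it ran Mcl1, Bak1, Bax, Bid, Bcl2, Bcl2l11, Bcl2l1, Bbc3, Pmaip1 and Bmf. The neighbours from Bcl2 to Bbc3 overlapped in their libraries, as did Pmaip1 and Bmf, and the others did not. In cKO the order was Mcl1, Bax, Bak1, Bid, Bbc3, Pmaip1, Bcl2l1, Bcl2, Bcl2l11 and Bmf. There Mcl1, Bax and Bak1 overlapped as neighbours, as did the neighbours from Pmaip1 to Bcl2l11. Bbc3 thus went from the eighth place to the fifth and stood apart from both its neighbours in cKO, and Bcl2 went from the fifth place to the eighth.

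Ratios between members of 1 role do not change when a library is multiplied by 1 factor, and 4 were compared by a two-sided exact permutation test over the 10 libraries, whose smallest possible p is 0.00794. The ratio of Bax to Bak1 was 0.680, 0.726, 0.623, 0.653 and 0.650 in WT 1 to 5 and 0.988, 1.21, 1.09, 1.5 and 1.36 in cKO 1 to 5. By FPKM, Bak1 was thus the more abundant effector transcript in each WT library, and Bax in 4 of 5 cKO libraries. The log2 ratio differed by 0.87 (exact p = 0.00794, adjusted over the 4 ratios 0.0159).

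Within the anti-apoptotic members, the ratio of Bcl2l1 to Bcl2 was 0.362, 0.770, 0.759, 0.548 and 0.652 in WT 1 to 5. It was 2.69, 1.19, 1.64, 0.814 and 1.05 in cKO 1 to 5, above every WT library, with a log2 difference of 1.18 (exact p = 0.00794, adjusted 0.0159). By FPKM, which depends on gene lengths not given here, Bcl2l1 was thus the higher of the pair in 4 of 5 cKO libraries and in no WT library. The ratio of Mcl1 to Bcl2 was 8.70 ± 0.609 in WT and 17.1 ± 11.2 in cKO, the cKO mean being drawn up by 36.9 in cKO 1 (log2 difference 0.79, exact p = 0.0159, adjusted 0.0212). Without cKO 1 that difference was 0.47 (exact p = 0.0317). The ratio of Bcl2l1 to Mcl1, 0.0703 ± 0.0156 against 0.0916 ± 0.0206, overlapped between the groups (log2 difference 0.39, exact p = 0.0873, adjusted 0.0873), with 0.47 without cKO 1 (exact p = 0.0476), 0.24 without WT 1 (exact p = 0.175) and 0.27 without cKO 3 (exact p = 0.175).

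**Figure D3:**
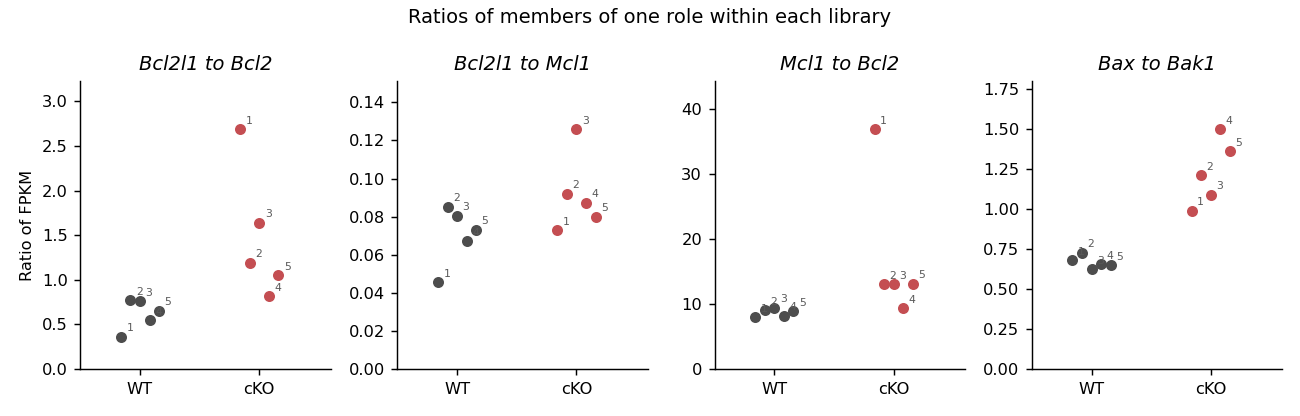
Ratio of FPKM of 2 members of 1 role within each library (vertical axes, starting at 0), for the 5 WT and 5 cKO libraries with their replicate numbers. The ratios of Bcl2l1 to Bcl2 and of Bax to Bak1 are higher in every cKO library than in any WT library, and library cKO 1 stands at 36.9 for Mcl1 to Bcl2.

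The promoters of the members were searched for the 10-base p53 half-site, since Bax, Bbc3 and Pmaip1 are known p53 targets. RefSeq promoter windows of 300 bases (GRCm38.p6) of 9 members were searched, Pmaip1 not being reported here. Of their 16 windows 2 held a half-site, beside 8.36% of all 32851 windows of the same length. The windows of Bbc3 held none, and Bmf also had windows without one. Bases outside these windows were not searched. The half-site is its own reverse complement, so 1 search covers both strands. The 2 matches are shown with 10 bases on either side, with capitals for the half-site:

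Bax: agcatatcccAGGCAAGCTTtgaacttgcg

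Bmf: cccaagtgaaGGGCTTGCCTcttgccgaat

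The match of Bax began 201 bases before the annotated start (chr7:45467080-45467109, minus strand) and that of Bmf 213 bases before it (chr2:118544781-118544810, minus strand). Bax was higher and Bmf lower in cKO. A match is a description of these letters only.

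The other genes of the BCL2 family were read from a list of 15. Of these, 13 were tested, Bcl2l10 and Hrk being listed at 0 in all libraries. Among them 1 was called lower and none higher, beside 16.8% and 4.60% of all genes tested. It was Bcl2l14, at 0.406 ± 0.0288 FPKM in WT and 0.182 ± 0.177 FPKM in cKO (log2 fold change -1.06, limma adjusted p = 0.0465), a call that was lost in 8 of 10 fits with a library left out (0.0736 to 0.0979). By limma 1 was higher and 3 were lower on adjusted p alone (16.7% and 28.3% of all genes tested), as at an unadjusted p under 0.05. The others that passed are named after their values were seen. Bcl2l13 rose from 19.5 ± 0.591 to 32.2 ± 3.48 FPKM (log2 fold change 0.71, limma adjusted p = 9.54e-05). Bcl2l12 (-0.61, limma adjusted p = 0.0023) and Bnip3 (-0.74, 0.00304) were lower. The list median of -0.38, beside -0.11 over all genes tested, is the value of Bcl2a1b. That gene was at 0.642 ± 0.244 FPKM in WT and 0.532 ± 0.364 FPKM in cKO (limma adjusted p = 0.503). The Bcl2a1 copies are near-identical and share fragments, so their values are uncertain.

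Of the regulators upstream, 21 genes that control the members' transcription or stability or feed death signals into Bid, 20 were tested, with 2 called higher and 1 lower. Tnfrsf10b, the mouse TRAIL receptor, went from 0.434 ± 0.110 to 1.30 ± 0.448 FPKM (log2 fold change 1.34, limma adjusted p = 0.00466). Its level in cKO 1 was 0.54 FPKM, the same as in WT 5, the highest WT library. The other cKO libraries were at 1.26 to 1.58 FPKM. Ddit3, the stress factor CHOP, which can induce Bbc3 and Bcl2l11, went from 7.81 ± 0.666 to 17.8 ± 2.78 FPKM (log2 fold change 1.17, limma adjusted p = 7.0e-05). Casp8, the caspase that cleaves BID, fell from 30.2 ± 1.6 to 12.9 ± 2.40 FPKM (log2 fold change -1.24, limma adjusted p = 6.0e-05). On adjusted p alone 7 were higher and 3 lower, with a list median of 0.19. For all genes tested, 16.7% were higher and 28.3% lower on adjusted p alone, 4.60% and 16.8% were called, and the median was -0.11. Trp53 and Mdm2 are named here after their values were seen. Trp53, at 46.3 ± 2.85 and 54.6 ± 12.4 FPKM, did not pass (log2 fold change 0.20, limma adjusted p = 0.323). Its cKO 1 was at 33.6 FPKM and the other cKO libraries at 53.84 to 64.62 FPKM, above the highest WT library at 48.87 FPKM, and without cKO 1 the log2 fold change was 0.37 (adjusted p = 0.00152). Its target and inhibitor Mdm2 had a log2 fold change of 0.18 (limma adjusted p = 0.0458), and passed in 1 of 10 fits with a library left out, the one without cKO 1 (0.0506 to 0.107 in the other 9).

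Of 12 genes listed as steps after permeabilization of the outer membrane, none was called. By limma 4 were higher and 3 lower on adjusted p alone, as at an unadjusted p under 0.05 (list median 0.07). The list also holds Vdac1, Vdac2 and Vdac3, which are channels of that membrane and not later steps. Vdac1 and Vdac2 were among the 4 higher. Over all genes tested 4.60% were called higher and 16.8% lower, and 16.7% and 28.3% were so on adjusted p alone (median -0.11). The 2 with the highest levels were Vdac1 and Vdac2. Vdac1 was at 121 ± 12.5 and 141 ± 7.39 FPKM (log2 fold change 0.22, limma adjusted p = 0.0392), with an adjusted p of 0.0501 to 0.087 in 8 of 10 fits with a library left out. Vdac2, which is known to bind BAK, was at 57.0 ± 5.01 and 82.2 ± 9.49 FPKM (log2 fold change 0.52, limma adjusted p = 0.00091). The 2 largest changes of the list, named after their values were seen, were falls of Apaf1, the core of the apoptosome, from 16.0 ± 2.43 to 9.02 ± 0.814 FPKM (log2 fold change -0.81, limma adjusted p = 0.00027) and of Xiap, a caspase inhibitor, from 17.5 ± 2.24 to 10.7 ± 1.16 FPKM (-0.69, limma adjusted p = 0.000491).

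**Figure D4:**
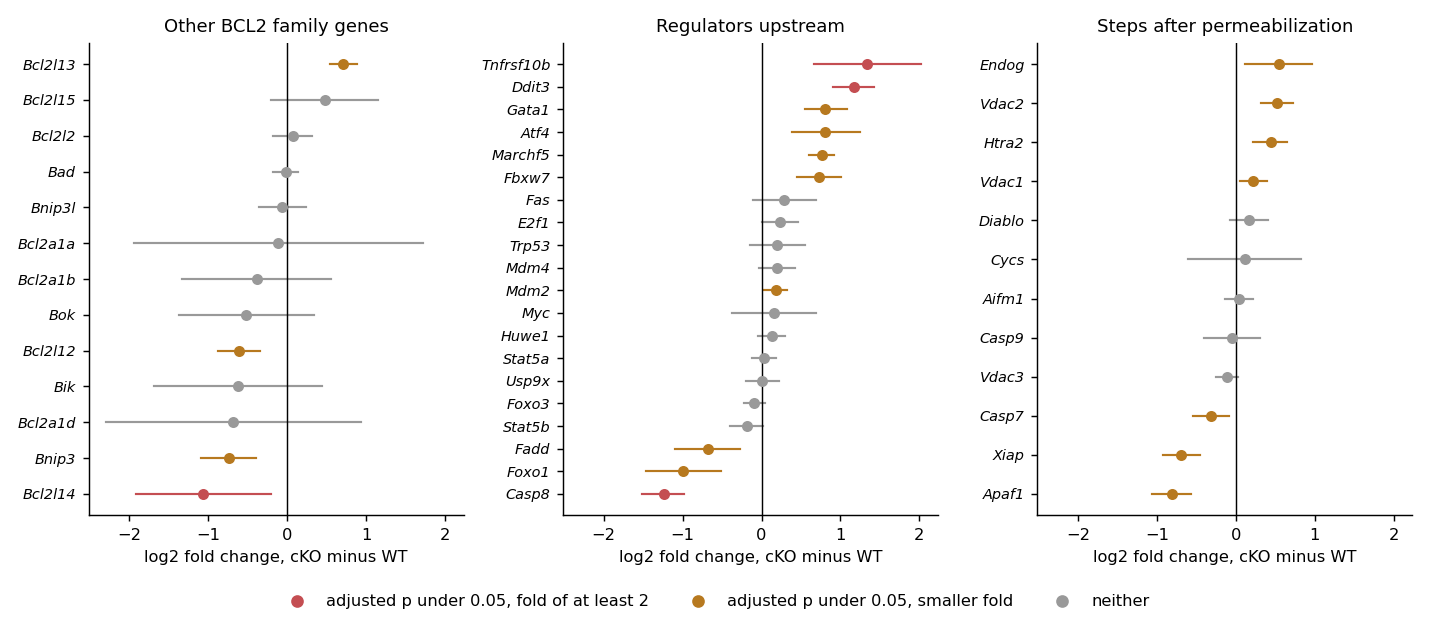
Log2 fold change (cKO minus WT, horizontal axes) with its 95% interval for the tested genes of 3 lists. They are other BCL2 family genes, regulators upstream, and steps after permeabilization, the last list also holding the Vdac channels. Red marks called genes, amber those with an adjusted p under 0.05 and a smaller fold. Tnfrsf10b (1.34) and Ddit3 (1.17) are the called rises, and Casp8 (-1.24) and Bcl2l14 (-1.06) the called falls.

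For the 3 called members with the largest changes, the genes with the most similar pattern over the 10 libraries were sought among 12344 genes, by the root mean square difference of log2 values centred on each gene's mean. Pmaip1 was nearest to Hopx (0.27), Gm9828 (0.277) and Pgcka1 (0.304), where the median of all genes was 1.09. Hopx rose from 7.42 ± 1.96 to 26.6 ± 6.43 FPKM. Bbc3 was nearest to Glipr2 (0.22), Dock5 (0.235) and Pbx3 (0.241), with a median of 0.853. Bmf was nearest to Tmem243 (0.256), Hdc (0.291) and Gm27252 (0.303), with a median of 0.907. Hdc, the histidine decarboxylase of mast cells and basophils, had 15.2 ± 3.89 FPKM in WT and 4.82 ± 1.81 FPKM in cKO. These likenesses rest on the same 10 libraries and mostly follow the difference between the groups.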

How the data were processed

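Lin- bone marrow cells of Dhx9f/f and Dhx9f/f;MX1 mice were measured by paired-end RNA-seq in 5 libraries per genotype. According to the methods and the submitters' processing notes, the authors trimmed reads (cutadapt 1.9.1), aligned them to GRCm39 (HISAT2 2.0.1) and list HTSeq 0.6.1; they deposited FPKM per gene and library, and the annotation, gene lengths and strand setting are not given in the sources used here. The columns were mapped to samples by name.

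Since FPKM do not suit the count model of DESeq2, which the authors used, each of the 18742 genes averaging 0.1 FPKM or more was tested by limma 3.58.1 (eBayes with trend, R 4.3.3). Values were log2(FPKM + 0.1), tests were two-sided, p-values were adjusted by Benjamini-Hochberg over all genes tested, and the authors' limits for a call were kept (2-fold or more, adjusted p under 0.05). The code was tested on simulated data. Fragments were inferred from steps in the FPKM: 96.6% to 97.4% of low values were whole within 0.2 fragments. A gene of 1000 bases at the floor of 3 fragments had 0.16 to 0.217 FPKM, which covers counting error only. No 2 libraries of 1 group were alike within sampling noise.

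The 10 members and all gene lists were chosen with earlier results of these data known, and 1 gene of a list is not reported here. Named were all members, Dhx9 and Xist, up to 3 called genes per direction and list (otherwise the 2 with the highest level), the top gene of each marker list and the 3 genes nearest to each of 3 members. BH3 cores were found as leucine, any 2 residues, a hydrophobic residue, alanine or cysteine, then glycine or alanine, then aspartate, in GENCODE coding sequence, where the plan had named proteins and a looser pattern. Alternative settings changed 1 choice at a time: the pseudocount (0.01, 1), the filter (none, or at least 1 FPKM on average), the scaling (3 kinds), the trend, the replicate block, the fold limit, each single library, and Xist as a covariate or as a limit on which libraries entered. Leaving out each library for some of the named list genes that are not members was chosen after seeing the data.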

Additional observations from a re-analysis of the deposited data

Results flagged for a closer look

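In 20 groups of 5 libraries (10 members, 2 genotypes), Dixon's criterion picked out 1 distant library in 3, where chance would give about 1 group. Bcl2l1 was at 7.57 FPKM in cKO 3 and at 4.71 to 5.39 FPKM in the other cKO libraries. Mcl1 was at 65.28 FPKM in cKO 1 and at 58.58 to 60.03 FPKM in the others. Bax was at 40.67 FPKM in cKO 1 and at 57.44 to 63.02 FPKM in the others. For both Mcl1 and Bax, cKO 1 was thus the cKO library nearest to WT, while for Bcl2 it was the farthest from WT. The cause was not tested.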

How the results depend on the processing

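The count of members called higher was 2, Bbc3 and Pmaip1, in every fit run and 3 on adjusted p alone. The count called lower was 3, and 0 with a pseudocount of 1, 1 (Bmf) with median-ratio scaling, 0 with quantile normalization, 1 (Bcl2l11) among libraries with Xist under 1 FPKM, 2 to 3 with each library left out, and 4 on adjusted p alone. The sign turned for Bcl2l1 without WT 1 (-0.05) and without cKO 3 (-0.02), for Bak1 with median-ratio scaling (0.05), Xist as a covariate (0.03) and Xist under 1 FPKM (0.03), and for Bid with median-ratio scaling (0.03) and without cKO 1 (0.01) (without each library in turn, Bcl2l1 reached up to 0.19 and Bid down to -0.12), and none of these 3 had passed. Among libraries with Xist under 1 FPKM, 2 WT against 5 cKO, no exact p can go below 0.0952, and that p was met by the log2 ratios of Bcl2l1 to Bcl2 (1.36), Mcl1 to Bcl2 (0.82) and Bax to Bak1 (0.79). With each library left out, the log2 ratio of Bcl2l1 to Bcl2 ran from 0.93 to 1.36, of Bcl2l1 to Mcl1 from 0.24 to 0.47, of Mcl1 to Bcl2 from 0.47 to 0.96, and of Bax to Bak1 from 0.80 to 0.95. Over all genes, 862 were called higher and 3153 lower, against 356 and 1486 with a pseudocount of 1, 462 and 1827 at a mean of at least 1 FPKM, and 536 and 2261 with Xist under 1 FPKM. Quantile normalization gave 1489 and 2338, so 38.9% of calls were higher instead of 21.5%, and moved the median of all genes from -0.11 to 0.08. The cause of these shifts was not tested. Same-numbered WT and cKO libraries had correlations of -0.077 to 0.193 in their deviations, and 3 of 5 correlated best with their own number. Whether the numbers pair the libraries cannot be told from these values. With a replicate block the counts stayed at 2 higher and 3 lower. Bmf has no value at a mean of at least 1 FPKM. Of low members, Bmf rests on about 14 fragments in its lowest library and Pmaip1 on about 42.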
